A study of Mus musculus with 8 samples.

Results

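Malat1, Neat1, Kcnq1ot1 and Pvt1 are long non-coding RNAs that act mainly in the nucleus, and their levels were compared here between DC-restricted progenitors (CDPs) of obese and control mice. The members were the rows of the deposited count table whose Ensembl identifier carries one of these symbols in GENCODE vM21, and all 4 were present among 16119 genes. None of the 4 differed between the diets past the threshold. Malat1, Neat1 and Kcnq1ot1 had lower means in HFD by 0.30, 0.33 and 0.29 on the log2 scale, each with an interval that spanned 0, and Pvt1 was at nearly the same level in both. Neat1 varied most between replicates and followed the level of neutrophil genes in the 8 libraries.

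CDPs are bone marrow progenitors from which dendritic cells arise. The sort took lineage-negative cells with intermediate c-kit and low Sca1 that carried CD115 and Flt3, about 50000 per sample, from mice of the C57BL/6 background. HFD mice (labelled DIO, for diet-induced obesity) ate 60 kcal% fat for 16 weeks, and CF mice (labelled DIO-Control) ate 10 kcal% fat and were matched in age. According to the methods the animals were males of the C57BL/6J strain. Each diet had 4 replicates, and the labels do not say whether 1 replicate was 1 animal or a pool, so p-values measure the spread between these samples, which may be partly technical. Neither group carried a transgene or another treatment.

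Malat1 accumulates in nuclear speckles, the bodies that store splicing factors. Neat1 is transcribed from the neighbouring gene, and its long form is the scaffold of paraspeckles, whose core proteins include Sfpq and Nono. The 3' ends of Malat1 and of long Neat1 are not polyadenylated in the usual way: RNase P cuts them at a tRNA-like structure, and a triple helix of uridine runs with an adenosine tail protects the end. Kcnq1ot1 is an unspliced antisense RNA made from the paternal chromosome that silences neighbouring imprinted genes and recruits the Polycomb complex PRC2 and histone methyltransferases. Pvt1 is a spliced RNA transcribed next to Myc, the transcription factor of cell growth, and its locus also gives rise to microRNAs.

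The ends of the RNAs are shown because they set apart the pair that RNase P processes from the pair with ordinary ends, in libraries made from total RNA. In the first set, the 100 bases that end at the shared run AAAAAGCAAAA of Malat1-201 and Neat1-201 are given 5′ to 3′, with runs of at least 4 T and the shared end in capitals, from the GENCODE vM21 transcripts (GRCm38). The Malat1 window is chr19:5795982-5796081 on the minus strand, positions 6592 to 6691 of the transcript, and the model goes on for 292 bases after it. The Neat1 window is chr19:5824708-5824807 on the minus strand and is the very end of the long form, positions 20672 to 20771.
Malat1-201: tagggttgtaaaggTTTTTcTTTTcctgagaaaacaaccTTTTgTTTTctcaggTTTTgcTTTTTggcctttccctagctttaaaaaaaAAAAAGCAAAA
Neat1-201: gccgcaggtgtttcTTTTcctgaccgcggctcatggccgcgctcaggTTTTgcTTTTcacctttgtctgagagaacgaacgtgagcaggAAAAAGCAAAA

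The Malat1 window held 6 such T runs and the Neat1 window 3, and they shared the last 11 bases exactly. On the transcript's own strand, those 11 bases occurred in the last 100 bases of 64 of 139316 annotated transcripts of at least that length (0.0459%), and in none of the Pvt1 transcripts or Kcnq1ot1. The second set shows the last 60 bases of the other transcripts, with the polyadenylation signal AATAAA in capitals, 5′ to 3′, from the same source. Kcnq1ot1-201 ends in chr7:143203458-143203517 on the minus strand.
Neat1-202: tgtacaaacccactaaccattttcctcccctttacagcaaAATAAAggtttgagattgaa
Kcnq1ot1-201: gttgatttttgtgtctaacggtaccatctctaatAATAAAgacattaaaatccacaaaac
Pvt1-201: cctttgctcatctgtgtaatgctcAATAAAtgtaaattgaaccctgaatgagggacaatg

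Neat1-202 is the short form of Neat1, with 3004 bases against 20771 in the long form. AATAAA was present in the last 60 bases of 27.2% of 141515 transcripts, in 6 of 10 Pvt1 transcripts, and in neither of the first pair of windows. Such a match is a description of the letters, not evidence that the site is used. The count table sums over all transcripts of a gene, so the short and long forms of Neat1 were not told apart.

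Malat1 (ENSMUSG00000092341) occupies bases 5795690 to 5802672 of chromosome 19 (GRCm38, minus strand), and its 4 transcripts merge into 1 exon block of 6983 bases. Neat1 (ENSMUSG00000092274) lies 22036 bp away on the same strand, from 5824708 to 5845478, and its exons cover all 20771 bases. Kcnq1ot1 (ENSMUSG00000101609) is a single exon of 93092 bases on chromosome 7 from 143203458 to 143296549, minus strand, antisense within Kcnq1, with which it shares 121 exonic bases. Kcnq1 was not among the genes of the table. Pvt1 (ENSMUSG00000097039) spans 340111 bp of chromosome 15 from 62037986 to 62378096 on the plus strand, with 21 merged exons that sum to 6996 bases. Whether the authors' counting used the strand is not given in the sources used here. With unstranded counting, reads from introns of Kcnq1 precursor RNA could not be told apart from Kcnq1ot1.

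Libraries held between 28203651 and 48409689 counts, and 15837 genes passed edgeR's filter on low counts and were tested, all 4 members among them. In the diet comparison 67 genes were called lower in HFD (0.423% of those tested) and 0 higher (0%; edgeR, Benjamini-Hochberg adjusted p below 0.05). Before adjustment, 845 genes had p below 0.05 and a lower mean in HFD, and 510 a higher one. The median log2 fold change of all genes was 0.055. Levels are given as CPM, the counts of a gene as a share of its library's total after scaling by the TMM factors of edgeR. The sort markers Kit, Flt3 and Csf1r were present at means of 42.6, 251 and 97.4 CPM in HFD and 47.9, 265 and 115 CPM in CF. Ly6a, which encodes Sca1, had 2.96 and 2.27 CPM. Flt3 was lowest in HFD replicate 1, at 88.8 CPM against 227 to 378 in the other 7 libraries, and the sum of 6 sort and progenitor genes was 505 CPM there against 840 to 1200 in those 7. HFD replicate 1 and CF replicate 1 stood out by genes of other cells. Summed over 10 neutrophil genes, HFD replicate 1 had 19459 CPM where the rest of HFD had 923 to 3421, and CF replicate 1 had 1885 CPM where the rest of CF had 5775 to 6351. HFD replicate 1, the library with the most Neat1, also had the highest sum of 5 erythroid genes (258 CPM against 44.8 to 75.6 in the other 7) and the lowest of 5 conventional DC genes (69.7 CPM against 119 to 183).

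Per kb of merged exon, the order of the levels was Malat1, Neat1, Kcnq1ot1, Pvt1 in 8 of 8 libraries. Mean levels in HFD and CF were 338 and 416 CPM per kb for Malat1, 6.29 and 7.90 for Neat1, 1.44 and 1.76 for Kcnq1ot1, and 0.171 and 0.176 for Pvt1. The level of Malat1 per kb was 31.4 to 117 times that of Neat1, with a median of 61.8. Neat1 was 1.53 to 9.78 times Kcnq1ot1, and Kcnq1ot1 6.26 to 14.5 times Pvt1. No neighbours in this order changed places in any library, although the gap between Neat1 and Kcnq1ot1 was narrow in some. These levels assume that reads cover the annotated exons evenly, and for Neat1 they average the short form, which covers 14.5% of the length of the long form, with the long form.

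Malat1 was among the most abundant RNAs of the table, ranking between 15 and 29 by counts. In HFD its level was 3506, 2432, 2050 and 1461 CPM in replicates 1 to 4. In CF it was 2999, 2200, 2989 and 3422 CPM. HFD replicate 1 was the highest of all libraries and HFD replicates 3 and 4 were below every CF replicate, so the diets overlapped. The means were 2362 ± 861 and 2902 ± 510 CPM (SD, n = 4 each), a log2 fold change of -0.30 with a standard error of 0.27 and a 95% interval of -0.92 to 0.32 (edgeR, adjusted p = 0.86). An exact two-sided permutation test of the CPM gave p = 0.31, where 0.029 is the smallest p that 4 against 4 allows. The interval includes a fold of 0.53 to 1.25 in HFD over CF.

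Neat1 had the widest spread. Its level in HFD was 332, 96.1, 52.2 and 42.5 CPM in replicates 1 to 4, and in CF 87.6, 162, 196 and 211 CPM. HFD replicate 1 was the highest library and HFD replicates 3 and 4 the lowest, and the highest library had 7.81 times the lowest. The means were 131 ± 136 and 164 ± 55.0 CPM (SD, n = 4 each), with a log2 fold change of -0.33, a standard error of 0.64 and a 95% interval of -1.78 to 1.12 (edgeR, adjusted p = 0.95). The exact two-sided permutation test gave p = 0.74. Within the diets, the SD of log2 CPM of Neat1 was 1.03, larger than that of 97.4% of 1087 genes within 2-fold of its mean level, whose median was 0.21.

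The value for Neat1 depended on HFD replicate 1. Without it, Neat1 was lower in HFD by a log2 fold change of -1.37 (standard error 0.37, 95% interval -2.22 to -0.51; edgeR, unadjusted p = 0.0061, adjusted p = 0.14), in a fit that called 1.26% of its genes. Malat1 had -0.55 in the same fit (unadjusted p = 0.045, adjusted p = 0.33). Without HFD replicate 3 or HFD replicate 4 the log2 fold change of Neat1 was -0.066 and -0.083. Neat1 was lower in HFD under each of 18 alternative settings and called in none.

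Kcnq1ot1 was more even. Its level in HFD was 152, 144, 152 and 86.9 CPM in replicates 1 to 4, and in CF 153, 129, 171 and 201 CPM. All 4 HFD replicates lay below the CF mean, but 3 of them were above CF replicate 2, and HFD replicate 4 stood apart below the others. The means were 134 ± 31.6 and 164 ± 30.1 CPM (SD, n = 4 each), a log2 fold change of -0.29 with a standard error of 0.21 and a 95% interval of -0.76 to 0.18 (edgeR, adjusted p = 0.81; exact two-sided permutation test, p = 0.23). Its SD of log2 CPM within the diets was 0.34, above that of 77.3% of 1077 genes of like level.

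Pvt1 was among the least abundant genes of the table, with 37 to 55 counts per library. Its level in HFD was 1.51, 1.20, 1.05 and 1.04 CPM in replicates 1 to 4, and in CF 1.42, 1.30, 1.17 and 1.04 CPM. The ranges of the diets lay almost on top of each other. The means were 1.20 ± 0.22 and 1.23 ± 0.17 CPM (SD, n = 4 each), with a log2 fold change of -0.042, a standard error of 0.24 and a 95% interval of -0.60 to 0.51 (edgeR, adjusted p = 0.99; exact two-sided permutation test, p = 0.83). At this depth a change of 0.66 to 1.43 times lies within the interval. The sign of this value changed with the scaling: with library size alone it was 0.17.

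**Figure D1:**
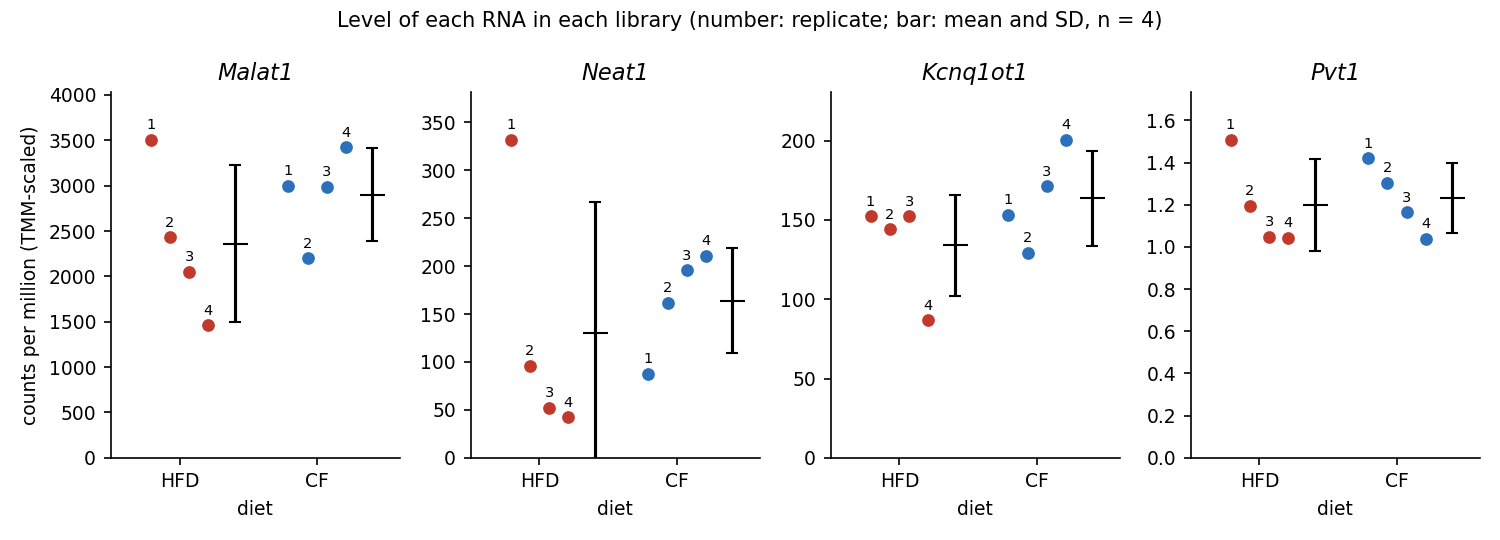
TMM-scaled CPM (y axes, linear from 0) of the 4 RNAs in each library, HFD in red and CF in blue, with the replicate number above each point and the mean and SD (n = 4) as a black bar beside each group. The diets overlap for every RNA, and Neat1 in HFD replicate 1, at 332 CPM, is far above the other HFD replicates, so that its SD bar is cut by the axis at 0.

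**Figure D2:**
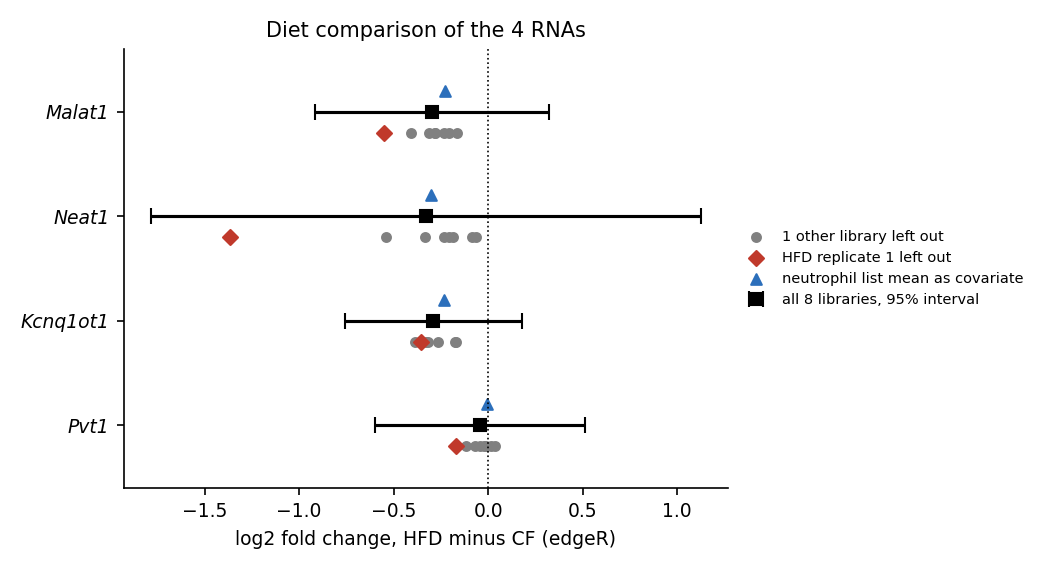
Log2 fold change of HFD against CF (x axis) for each RNA. Black squares with bars are the fit of all 8 libraries with its 95% interval, grey points the fits with 1 library left out, red diamonds the fit without HFD replicate 1, and blue triangles the fit with the neutrophil list mean as covariate. Each interval spans 0, and Neat1 without HFD replicate 1 lies at -1.37.

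The ratio of the neighbouring genes Neat1 and Malat1 does not depend on scaling between libraries. Neat1 had 9.47, 3.95, 2.55 and 2.91 counts per 100 counts of Malat1 in HFD replicates 1 to 4, and 2.92, 7.36, 6.56 and 6.16 in CF. CF replicates 2, 3 and 4 and HFD replicate 1 were high, and CF replicate 1 was as low as the remaining HFD replicates. The mean log2 ratio differed by -0.41 (SD 0.85 in HFD and 0.61 in CF, n = 4 each; exact two-sided permutation test, p = 0.43). It was -0.82 without HFD replicate 1, -0.71 without CF replicate 1, -0.19 without HFD replicate 3, -0.25 without HFD replicate 4 and -0.27 without CF replicate 2, and the lowest p of the same exact permutation test was 0.086, without HFD replicate 1.

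Neat1 moved with the neutrophil list, which holds granule and receptor genes such as S100a8, S100a9, Ltf and Cxcr2. The mean log2 CPM of its 10 genes was 10.06, 7.34, 6.07 and 5.63 in HFD replicates 1 to 4 and 6.76, 8.38, 8.40 and 8.35 in CF. Over the 8 libraries Neat1 followed it with r = 0.98 (permutation p = 9.92e-05, adjusted p = 0.0014 over 14 relations) and rho = 0.93 (permutation p = 0.0022, adjusted p = 0.031). Without HFD replicates 1 and 4, the libraries farthest from the median, r was 0.98. After the mean of each diet was taken off, r was 0.99. Each of the 10 genes correlated with Neat1 at r between 0.95 and 0.99. Of 8761 genes with a mean of at least 5 CPM, 84 (0.959%) followed the list as closely, and of 174 long non-coding genes among them 0 did. None of the 10 neutrophil genes was at 0 in any library, and the lowest single value was 6.60 CPM, although the gate took lineage-negative cells. In bulk RNA, fewer cells of a type and less RNA per cell cannot be told apart.

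With the neutrophil list mean as a covariate, the log2 fold change of Neat1 was -0.30 with a standard error of 0.11 (95% interval -0.55 to -0.057; edgeR, unadjusted p = 0.021, adjusted p = 0.22), in a fit that called 4.29% of the genes. The standard error was 5.81 times smaller than without it. That fit gave -0.23 for Malat1, -0.23 for Kcnq1ot1 and -0.0036 for Pvt1, none called. Malat1 had r = 0.76 with the same list (permutation p = 0.026, adjusted p = 0.061; rho = 0.69, permutation p = 0.069), which fell to 0.45 without HFD replicates 1 and 4. Kcnq1ot1 (r = 0.52, permutation p = 0.18; rho = 0.29, permutation p = 0.50) and Pvt1 (r = 0.57, permutation p = 0.15; rho = 0.48, permutation p = 0.24) had weaker relations, with r = 0.25 and r = -0.01 without those libraries.

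Immediate early genes, such as Fos and Jun, which cells induce within minutes of a stimulus or of handling, moved with Neat1 too. Like the neutrophil list, they had their lowest mean log2 CPM in HFD replicates 3 and 4. Whether this relation is separate from that with the neutrophil list was not tested. The summed level of 15 such genes was 968, 274, 286 and 223 CPM in HFD replicates 1 to 4 and 622, 864, 985 and 735 CPM in CF. Neat1 followed their mean log2 CPM with r = 0.89 (permutation p = 0.0031, adjusted p = 0.022) and rho = 0.86 (permutation p = 0.011, adjusted p = 0.072), and with r = 0.71 without HFD replicates 3 and 4. Malat1 had r = 0.78 (permutation p = 0.021, adjusted p = 0.059; rho = 0.67, permutation p = 0.083), and r = 0.37 without them. Kcnq1ot1 had r = 0.62 with this list (permutation p = 0.086, adjusted p = 0.16; rho = 0.43, permutation p = 0.30) and Pvt1 r = 0.55 (permutation p = 0.16, adjusted p = 0.23; rho = 0.43, permutation p = 0.30), which were r = 0.19 and r = 0.16 without them. These 15 genes all had lower means in HFD, 4 of them at an unadjusted p below 0.05, and 0 were called.

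**Figure D3:**
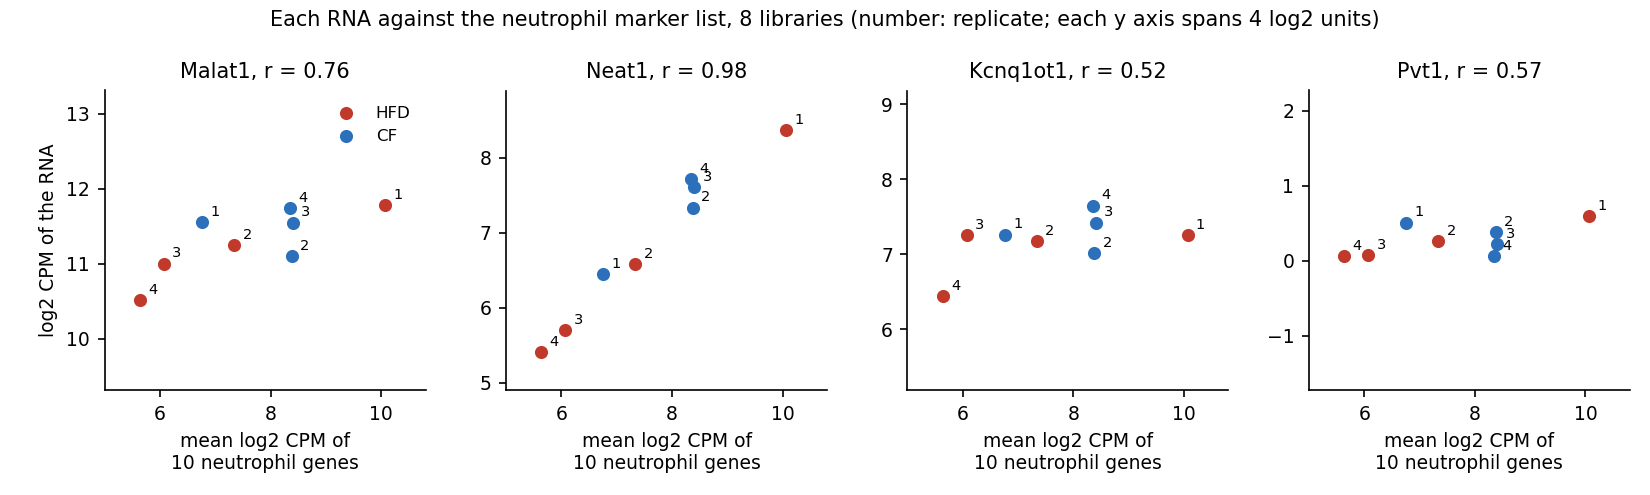
Log2 CPM of each RNA (y axes, each spanning 4 log2 units) against the mean log2 CPM of 10 neutrophil genes (x axes) in the 8 libraries, HFD in red and CF in blue, numbered by replicate. Neat1 falls on a line through both diets (r = 0.98), and Kcnq1ot1 (r = 0.52) and Pvt1 (r = 0.57) span a narrower range.

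Among the RNAs themselves, Malat1 followed Neat1 (r = 0.83, permutation p = 0.011, adjusted p = 0.037; rho = 0.83, permutation p = 0.015, adjusted p = 0.072) and Kcnq1ot1 (r = 0.86, permutation p = 0.0062, adjusted p = 0.029; rho = 0.62, permutation p = 0.11, adjusted p = 0.27). Neither rank correlation passed the adjustment. Malat1 and Neat1 had r = 0.62 without HFD replicates 1 and 4, and Malat1 and Kcnq1ot1 had r = 0.52 without HFD replicate 4 and CF replicate 4, so both relations rest in part on those pairs of libraries. The other 4 pairs had r between 0.098 and 0.61, with no adjusted p below 0.16.

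Genes whose log2 CPM was most like each RNA over the 8 libraries were taken from 8771 genes with a mean of at least 5 CPM. For Malat1 they were Rfx1 (r = 0.98), 5830432E09Rik (r = 0.98) and Tnrc6a (r = 0.98), and 55 genes had r above 0.9. For Neat1 they were Sfxn5 (r = 0.99), Cd300lf (r = 0.99) and Il1f9 (r = 0.99), and 410 genes had r above 0.9. Cd300lf encodes a receptor of myeloid cells and Il1f9 a cytokine of the interleukin-1 family. Their levels ran from 4.05 CPM in HFD replicate 4 to 60.9 CPM in HFD replicate 1 for Cd300lf, and from 1.58 to 37.0 CPM for Il1f9. Kcnq1ot1 was most like D030028A08Rik (r = 0.98), Pigb (r = 0.97) and Ogt (r = 0.96), with 27 genes above 0.9. Pvt1 was most like Spop (r = 0.93), Slc25a16 (r = 0.92) and Kcmf1 (r = 0.92), with 8 above 0.9. These values describe 8 libraries, over which the highest values were picked out. For the genes named with Malat1, Neat1 and Kcnq1ot1 the lowest level was in HFD replicate 4.

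Partners of the RNAs were described by 9 lists of 159 tested genes, and 1 of these was called, where 67 of all 15837 genes tested were (0.423%). For comparison, 9447 of all genes tested were higher and 6390 lower in HFD. Of 11762 nuclear protein-coding genes 7612 were higher and 4150 lower. All 28 paraspeckle genes were tested, 16 higher and 12 lower in HFD and 0 called, with a median log2 fold change of 0.016 and a range from -0.23 to 0.20. Sfpq and Nono, which bind Neat1 in the core of paraspeckles, had 218 and 136 CPM in HFD and 224 and 136 CPM in CF. The lowest p values of the list belonged to Rbm4b (log2 fold change -0.23) and Rbm14 (-0.087), with adjusted p = 0.86 and 0.88 by edgeR. The mean log2 CPM of the paraspeckle list was between 5.74 and 6.01 in the 8 libraries. HFD replicate 1, with the most Neat1, had the lowest value.

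Of 27 nuclear speckle genes 14 were higher and 13 lower, with a median of 0.010, and Ppig was called lower. Ppig, a cyclophilin with an arginine and serine rich domain that is found in speckles, had 30.9 ± 5.16 CPM in HFD and 53.9 ± 2.77 in CF (SD, n = 4 each; log2 fold change -0.80, standard error 0.13, edgeR adjusted p = 0.044), and the diets did not overlap, as for 6.16% of the genes tested. The call was lost in 7 of the 8 fits with 1 library left out, all but that without HFD replicate 1 (adjusted p from 0.025 to 0.20), and in 3 of 10 other alternatives, with log2 fold changes below 0 in each. Clk1, a kinase of splicing factors, had -0.27 (edgeR, adjusted p = 0.74). In the list of RNase P and tRNA end processing, 10 of 13 genes were higher and 3 lower, with a median of 0.19 and 0 called. Rpp38, a protein subunit of RNase P, had a log2 fold change of 0.47, and Trnt1, which adds the CCA end of tRNAs, 0.28 (edgeR, adjusted p = 0.70 and 0.78). Rpph1, the RNA subunit of the enzyme that cuts Malat1, was at 1373 ± 272 CPM in HFD and 1680 ± 366 in CF (SD, n = 4 each; edgeR, adjusted p = 0.82).

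Nuclear RNA decay genes, which encode the nuclear exosome and its adaptors, were 15 higher and 7 lower of 22, with a median of 0.11. Mtrex, the helicase of the exosome, had 0.18 and the nuclease Dis3 had 0.15 (edgeR, adjusted p = 0.66 and 0.83). RNA adenosine methylation and triple helix binding genes were 9 higher and 6 lower of 15, with a median of 0.018. Mettl16, a methyltransferase that binds the Malat1 triple helix, had 16.9 ± 1.05 CPM in HFD and 14.5 ± 1.08 in CF (SD, n = 4 each; log2 fold change 0.22, edgeR adjusted p = 0.63). Rbm15b, an adaptor of the methylation complex, had 0.27 (edgeR, adjusted p = 0.58). Neither list had a gene called.

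**Figure D4:**
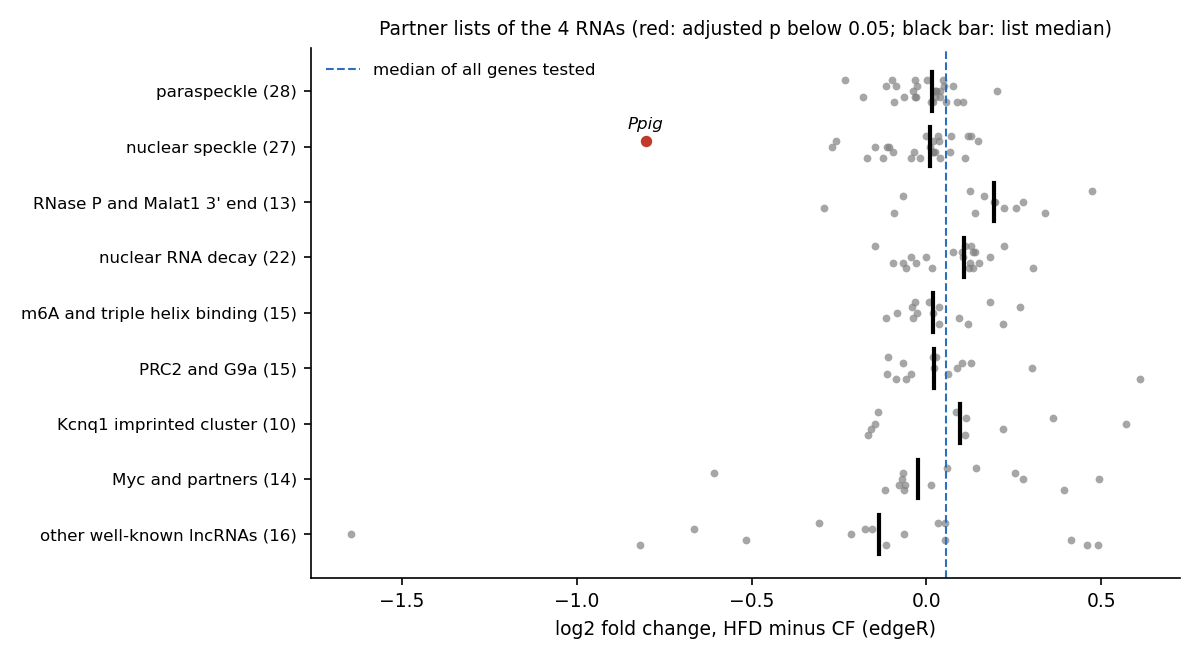
Log2 fold change of HFD against CF (x axis) for each tested gene of the 9 partner lists (rows, number tested in brackets). Grey points are genes not called, the red point is Ppig at -0.80, black bars are list medians, and the dashed line is the median of all genes tested at 0.055. List medians lie between -0.13 and 0.19.

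For Kcnq1ot1, the PRC2 and histone methyltransferase list had 9 genes higher and 6 lower of 15, with a median of 0.023 and 0 called. Suz12, a core subunit of PRC2, had 115 CPM in HFD and 93.5 in CF (log2 fold change 0.30, edgeR adjusted p = 0.72). It was higher in each HFD replicate than in any CF replicate. Over all genes tested, the diets did not overlap, in either direction, for 6.16%. Cbx7, a Polycomb reader protein, had 0.61 (edgeR, adjusted p = 0.81). Of 20 genes of the imprinted cluster and its flanks 10 were tested, 6 higher and 4 lower, with a median of 0.097 and 0 called. Dhcr7, the last enzyme of cholesterol synthesis, had 11.4 CPM in HFD and 7.69 in CF (log2 fold change 0.57, edgeR adjusted p = 0.59). Tspan32 had 0.36 with a standard error of 0.42. Cdkn1c, Phlda2, Slc22a18 and Ascl2, among the genes silenced with Kcnq1ot1 in other tissues, were not among the genes tested.

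For Pvt1, the list of Myc and its partners had 7 genes higher and 7 lower of 14, with a median of -0.023 and 0 called. Myc itself was at 44.3 CPM in HFD and 33.8 in CF, a log2 fold change of 0.39 with a standard error of 0.16 (edgeR, unadjusted p = 0.041, adjusted p = 0.54). Mlx, a partner of the Max network, had -0.61 (edgeR, adjusted p = 0.41). Over the 8 libraries Pvt1 and Myc had r = -0.52, given as a description. Myc was the only tested gene within 500 kb of Pvt1.

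Within 200 kb of the 4 genes 23 genes were tested, 14 higher and 9 lower in HFD, with a median of 0.071 and 0 called (edgeR, against 3 at an unadjusted p below 0.05). Frmd8, 4224 bp from Neat1, had 32.1 CPM in HFD and 32.8 in CF (log2 fold change -0.032), and its r with Neat1 was 0.28. The nearest tested neighbours of Kcnq1ot1 were Tssc4, 132365 bp away (-0.14), and Nap1l4, 217030 bp away (0.085). The 3 genes at an unadjusted p below 0.05 were Myc, Fam89b and Slc25a45, of which the last pair was named after its values were seen. Fam89b, between Malat1 and the end of the 200 kb window, had 2.09 CPM in HFD and 6.84 in CF (log2 fold change -1.71, standard error 0.37, edgeR adjusted p = 0.11). Slc25a45, a mitochondrial carrier, had 12.6 and 20.5 CPM (-0.70, edgeR adjusted p = 0.44).

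**Figure D5:**
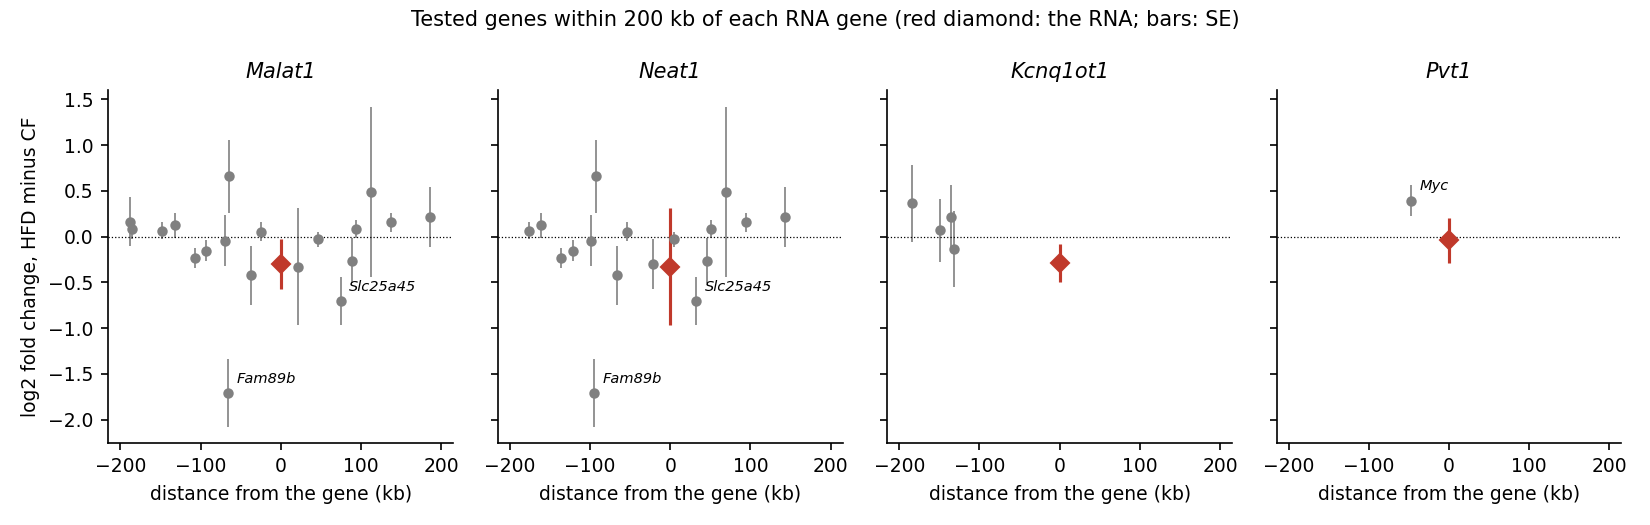
Log2 fold change of HFD against CF with its standard error (y axis) for tested genes within 200 kb, by distance from each RNA gene (x axes, negative towards lower coordinates). The red diamond at 0 is the RNA itself, and genes at an unadjusted p below 0.05 are named. Most neighbours of Malat1 and Neat1 lie near 0, Fam89b lies at -1.71, and Pvt1 has Myc as its single tested neighbour.

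A small gene annotated inside Neat1, Gm27505, was counted on its own in the table. It had 232 counts in HFD replicate 1, 169 in CF replicate 4 and 1 or 2 in each of the other 6 libraries, and was not tested. These counts came to 2.24 and 2.08 per 100 counts of Neat1. How the counting divided reads between the overlapping genes was not tested.

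Long non-coding genes as a class were described for comparison. Of 1095 tested, 415 were higher and 680 lower in HFD, with 1 called lower and a median of -0.12, against a median of 0.071 in 11762 protein-coding genes. Malat1, Neat1 and Kcnq1ot1 were lower than either median, and Pvt1 lay between them. Among 117 long non-coding genes with over 5000 bases of exon the median was -0.079 and 0 were called. Of 30 other well-known long non-coding RNAs 16 were tested, 6 higher and 10 lower, with a median of -0.13 and 0 called. Gas5 and Snhg12, which host snoRNAs in their introns, had the lowest p values. Gas5 had 130 CPM in HFD and 229 in CF (log2 fold change -0.82, standard error 0.26, edgeR adjusted p = 0.28), and Snhg12 had 12.8 and 40.3 CPM (-1.65, standard error 0.69, edgeR adjusted p = 0.54). Tug1, which hosts none, had 83.9 and 82.0 CPM (0.033).

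Markers of other cells and of handling were compared in the same fit. All 6 B cell genes had higher means in HFD, 5 at an unadjusted p below 0.05, and their sum, mostly Ighm, ran from 444 to 1244 CPM in the HFD replicates against 278 to 498 in CF. All 5 erythroid genes had higher means in HFD (median log2 fold change 0.87), none at an unadjusted p below 0.05. All 5 plasmacytoid DC genes had higher means, 4 at an unadjusted p below 0.05, and their sum ran from 169 to 391 CPM in the HFD replicates against 175 to 222 in CF, where HFD replicate 1 was the lowest library. Of 5 conventional DC genes 4 had lower means (median log2 fold change -0.34), and of 5 monocyte and macrophage genes 4 did (median -0.13). Of 10 neutrophil genes 9 had higher means in HFD (median 0.30), whereas Neat1, which followed them across libraries, had a lower one. Of 3 T and NK cell genes tested, Klrb1c had a higher mean in HFD (0.76) and Nkg7 and Cd3d lower ones (-0.087 and -0.11). None of these was called. Of 11 heat shock genes 6 had higher and 5 lower means in HFD (median log2 fold change 0.0083). Of these Hspa1a and Hspa1b, inducible chaperones, were called lower, with 30.1 against 248 CPM and 37.4 against 292 CPM (edgeR, adjusted p = 0.035 each). Both were among 3 of the 11 genes whose levels did not overlap between the diets. Over all genes tested, 0.423% were called lower and 6.16% did not overlap in either direction. The calls of Hspa1a and Hspa1b were lost in 6 of the 8 fits with 1 library left out, all but those without HFD replicate 1 or CF replicate 4 (edgeR, adjusted p up to 0.19). They were also lost in the linear model and the replicate block. The log2 fold changes were at most -2.75 in each of these fits. Apart from the relations with the neutrophil and immediate early lists and the neutrophil covariate, the part of other cells and of handling in the levels of the 4 RNAs was not tested.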

How the data were processed

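RNA of sorted CDPs was sequenced in 8 libraries (4 HFD, 4 CF) from total RNA, amplified with the NuGen Ovation Solo system, in paired 75 bp reads. The authors deposited raw counts per gene. According to their methods and processing notes, reads were checked with FastQC, trimmed with cutadapt, aligned to GRCm38 with HISAT2, kept where uniquely mapped and counted with StringTie on GENCODE genes. Which GENCODE release was used, and whether strand was, is not given in the sources used here. Unique mapping drops reads of repeats, which can lower the counts of long genes that hold many. No gene had a highest count below 29.

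GENCODE vM21 held 16067 of the 16119 Ensembl identifiers and gave names, positions, exon lengths and the sequences printed. Counts were compared in R 4.3.3 with edgeR 4.0.16 (filterByExpr, TMM, robust quasi-likelihood test, two-sided test of HFD against CF with no covariate), with Benjamini-Hochberg adjustment over all 15837 genes tested and a threshold of 0.05. The standard error is the log2 fold change over the square root of F, and intervals are 95%. A prior count of 2 was added for log2 CPM of lists. The exact permutation test of a level ran over all 70 ways to draw 4 of 8 libraries, and that of a correlation over all 40320 orders. The edgeR test was tried on simulated data before use. Other settings tried were TMM of protein-coding genes, library size alone, RLE size factors, DESeq2 1.42.0, limma 3.58.1 (voom), a linear model on log2(CPM + 1), a filter of 1 CPM in 4 libraries or none, a block for the replicate number, the neutrophil list as covariate, and each library left out in turn.

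The members and lists were chosen with earlier results of these data known, and the lists were written from general knowledge. Genes named are the 4 RNAs, in each partner list the 2 with the lowest p and any called (in cell and handling lists those called and the most abundant), the nearest tested neighbour on each side, the 3 most alike by Pearson r with a mean of at least 5 CPM, and the sort markers; 1 gene within this rule is not reported here. Others, such as Sfpq, Nono, Rpph1, Tug1, Fos, Jun, Ltf and Cxcr2, were named for what they do, with their values known. Figures used Python 3.11.15 and matplotlib 3.10.9.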

Additional observations from a re-analysis of the deposited data

Results flagged for a closer look

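Among 12 groups of 4 replicates looked at (the CPM of each RNA, the ratio of Neat1 to Malat1 and the neutrophil list, in each diet), 2 held a replicate far from the other 3 by Dixon's test, which chance gives in about 1 in 20 groups. Kcnq1ot1 was at 86.9 CPM in HFD replicate 4, against 144 to 152 CPM in the other HFD replicates. The mean log2 CPM of the neutrophil list was 6.76 in CF replicate 1, against 8.35 to 8.40 in the other CF replicates, and Neat1 was lowest of its diet there at 87.6 CPM. Neat1 in HFD replicate 1 came close, with a gap of 0.815 of the range.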

How the results depend on the processing

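Malat1, Neat1 and Kcnq1ot1 were lower in HFD, and called in none, under each of 18 alternatives, with log2 fold changes from -0.55 to -0.13, -1.37 to -0.066 and -0.39 to -0.10 and lowest adjusted p of 0.33, 0.14 and 0.49. Pvt1 turned higher with library size alone (0.17) and the linear model (0.090), and leaving out 1 library gave -0.17 to 0.035 (above 0 without HFD replicate 3, 0.017, or CF replicate 1, 0.035). The median of all genes was 0.25 with library size alone, 0.20 in the linear model and 0.0090 with protein-coding TMM, against 0.055. With protein-coding TMM, which divides by protein-coding counts, levels in HFD and CF were 940 and 1196 CPM per kb for Malat1, 17.4 and 22.7 for Neat1, 4.00 and 5.06 for Kcnq1ot1 and 0.477 and 0.506 for Pvt1. Genes called numbered 67 in the test reported and 108 with library size alone (98 lower, 10 higher), 567 in DESeq2 (503 lower, 64 higher), 0 in the linear model (before adjustment 587 lower and 2006 higher had p below 0.05), 679 with the neutrophil covariate (564 lower, 115 higher), and 0 to 200 with 1 library left out (200 without HFD replicate 1, 166 lower and 34 higher, 154 lower without CF replicate 4, at most 2 without any other). The 1 partner gene called became 0 with library size alone and in the linear model, 2 with the neutrophil covariate, and 0 to 1 with 1 library left out (1 without HFD replicate 1 alone, 0 in the other 7). Causes were not tested. With the replicate block, Malat1, Neat1, Kcnq1ot1 and Pvt1 had -0.35, -0.89, -0.30 and -0.045, and 0 genes, 0 partners included, were called (before adjustment 675 lower and 236 higher had p below 0.05). Replicates of 1 number deviated from their diet's mean with r of -0.44, -0.078, -0.23 and -0.18, so the numbers were not taken as pairs. Pvt1 had the fewest counts of the 4 RNAs, 37 to 55 per library.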
